A study of Mus musculus with 20 samples.

Results

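Expression of 10 genes of dermal adipocytes was followed across mouse normal skin (NS), actinic keratosis (AK) and cutaneous squamous cell carcinoma (cSCC). The genes were listed by symbol, with earlier results of these data known, and all 10 were found among the 22090 genes of the count table. They were Adipoq, Retn, Cfd and Lep, which encode secreted factors, Plin1, Plin4 and Cidec, which encode lipid droplet proteins, Fabp4 and Lpl, which handle fatty acids, and the transcription factor gene Pparg. RNA was sequenced from 20 pieces of back skin, 8 NS, 8 AK and 4 cSCC. All came from 8 female hairless SKH-1 mice with a stated age of 7 months, 4 kept without ultraviolet light and 4 irradiated with it. In the study's methods, 7 months is the age of the mice when divided into groups. Repeated irradiation with UVA and UVB over weeks followed, and tissue was taken after it, at a later age. Each unirradiated mouse gave 1 NS piece, and each irradiated mouse gave NS, AK of a lower and a higher grade and cSCC. The labels do not tell irradiated from unirradiated NS, the AK grade or the mouse, so NS and AK were each treated as 1 group. The 8 AK stand for 4 mice, samples were tested as independent, and p-values measure the spread between these samples only.

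White adipocytes lie under the dermis, where they store triglyceride in a single large droplet and form part of the deep layer of a skin sample. PPARγ together with C/EBP factors switches on most genes of the mature cell, among them those for droplet coat proteins, fatty acid carriers and adipokines. Dermal adipocytes expand and shrink with hair growth, wound repair and infection. Adipoq, Retn, Lep, Plin1 and Cidec are largely restricted to adipocytes in skin, whereas Fabp4, Lpl, Plin4, Pparg and Cfd are also used by endothelium, macrophages, muscle or sebocytes. In bulk RNA, fewer adipocytes in a piece and less RNA per adipocyte cannot be told apart.

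Promoter windows of 300 bases (250 before to 50 after the start) were taken from RefSeq on GRCm38.p6 for 8 of the 10 genes. Those of Adipoq (chr16:23146286-23146585, plus strand), Retn (chr8:3655520-3655819, plus strand), Cfd (chr10:79890603-79890902, plus strand) and Cidec (chr6:113434715-113435014, minus strand, the second of 2 windows) are printed because these 4 genes moved together in the results that follow. The window of Lep (chr6:29059971-29060270, plus strand) is added as that of the remaining adipokine. Capitals mark TTGCNNAA, the C/EBP element searched on both strands.
Adipoq: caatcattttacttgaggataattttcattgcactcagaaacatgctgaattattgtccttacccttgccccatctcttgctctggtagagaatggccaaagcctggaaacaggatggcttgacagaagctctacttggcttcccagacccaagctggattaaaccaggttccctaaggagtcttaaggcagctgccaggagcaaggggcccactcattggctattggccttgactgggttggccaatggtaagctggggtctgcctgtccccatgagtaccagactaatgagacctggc
Retn: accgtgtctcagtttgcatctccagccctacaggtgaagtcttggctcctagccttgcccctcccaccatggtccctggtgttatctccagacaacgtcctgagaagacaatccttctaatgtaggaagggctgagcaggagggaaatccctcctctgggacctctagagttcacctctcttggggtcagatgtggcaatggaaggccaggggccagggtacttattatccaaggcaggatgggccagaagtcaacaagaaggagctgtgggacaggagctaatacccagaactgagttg
Cfd: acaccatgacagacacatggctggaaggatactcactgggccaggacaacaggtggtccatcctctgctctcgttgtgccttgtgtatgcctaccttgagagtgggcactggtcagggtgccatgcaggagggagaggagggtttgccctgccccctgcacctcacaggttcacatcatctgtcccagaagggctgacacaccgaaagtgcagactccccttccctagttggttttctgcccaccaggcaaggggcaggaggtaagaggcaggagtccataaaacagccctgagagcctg
Cidec: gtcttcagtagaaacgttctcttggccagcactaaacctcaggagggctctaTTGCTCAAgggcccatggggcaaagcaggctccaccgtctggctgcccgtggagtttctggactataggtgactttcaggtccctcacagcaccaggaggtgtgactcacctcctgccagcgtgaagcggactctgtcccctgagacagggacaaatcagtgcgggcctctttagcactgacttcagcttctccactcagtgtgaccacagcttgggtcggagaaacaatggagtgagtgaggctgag
Lep: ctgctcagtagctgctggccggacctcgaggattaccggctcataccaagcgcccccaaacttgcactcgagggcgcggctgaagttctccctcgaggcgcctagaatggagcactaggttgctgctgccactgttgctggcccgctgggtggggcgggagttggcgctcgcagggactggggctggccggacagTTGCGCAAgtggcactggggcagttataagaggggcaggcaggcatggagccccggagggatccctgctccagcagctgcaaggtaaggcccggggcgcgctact
In the second Cidec window, the element stood at -198 to -191 from that start as TTGCTCAA, while the first Cidec window lacked it. In the Lep window it stood at -55 to -48 from the start as TTGCGCAA, which reads the same on both strands. It was also found in the Plin1 window, as TTGCCTAA and TTGCCCAA. In 1 of the 3 Pparg windows it stood as TTGCCAAA and TTTTGCAA, the latter on the minus strand. The windows of Adipoq, Retn, Cfd and Plin4 lacked it. Among all 32851 RefSeq windows of this length, 10.8% held it. This share is per window, whereas Cidec and Pparg had more than 1 window each. TATAAA was found on the minus strand of 1 Pparg window and in 13.6% of all windows. A PPAR element, AGGNCA in direct repeat with 1 base between, was found in none of the members' windows and in 0.381% of all windows. A match or its absence describes only the letters of these windows.

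Depth and sample makeup differed between the libraries. Totals ranged from 775750 counts (cSCC 20) to 14055206 counts (AK 10), and 3 counts, the smallest number read as detection, equalled 0.225 to 3.78 CPM. CPM are each gene's counts scaled to one common library size, with TMM-adjusted totals over all genes, and were not corrected for gene length. Markers of 9 other cell types were summed in each sample, and 3 of the 4 cSCC libraries stood apart. In cSCC 20, the 9 lung epithelium markers were all detected and summed to 36072 CPM, against at most 54.2 CPM in NS and AK and 9.67 to 10.4 CPM in the other cSCC. In cSCC 21, 9 of 10 heart muscle markers were detected and summed to 58806 CPM, against at most 83.2 CPM in NS and AK and 81.3 to 170 CPM in the other cSCC. In cSCC 18, 6 red blood cell genes took 46.9% of the counts, against 0.0918% to 14.4% in NS and AK. Keratinocyte markers were present in all 4, at 20391 CPM in cSCC 18, 18197 CPM in cSCC 19, 6036 CPM in cSCC 20 and 4535 CPM in cSCC 21. Results for cSCC are therefore given with all samples, without cSCC 20, and without cSCC 20 and 21. Among the cSCC, cSCC 20 or cSCC 21 also had the highest level of every member detected, so these fits are not independent of the members' levels.

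**Figure D1:**
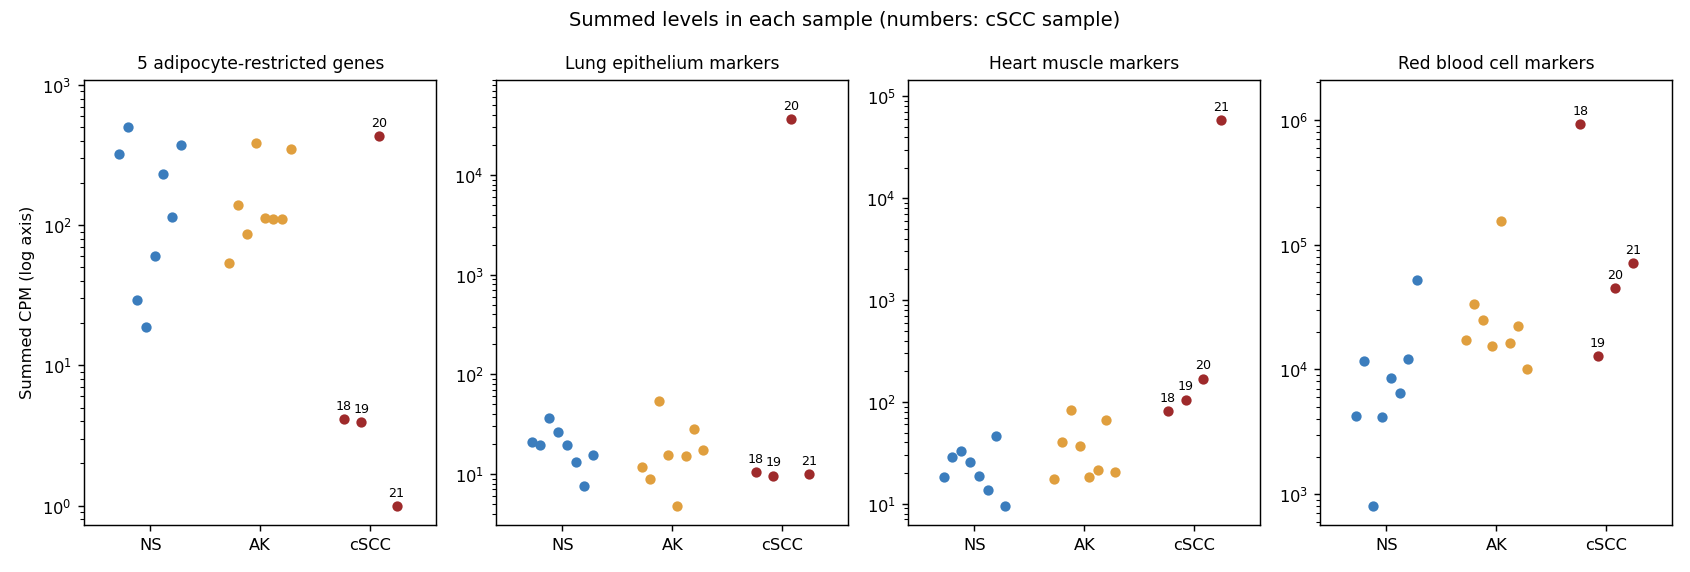
Summed CPM on a log axis of the 5 adipocyte-restricted genes and of markers of lung epithelium, heart muscle and red blood cells, 1 point per sample by group, with cSCC samples numbered. The adipocyte sum of cSCC 20 (433 CPM) lies within the NS range and above the highest AK (383 CPM), those of cSCC 18, 19 and 21 lie below both groups, and the lung, heart and red blood cell sums are highest in cSCC 20, 21 and 18, respectively.

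The adipocyte-restricted genes were low in 3 of the 4 cSCC. Adipoq, Lep, Plin1, Cidec and Retn summed to 18.7 CPM in the lowest NS, 172 CPM in the median NS and 499 CPM in the highest. In AK the same sum had a lowest value of 53.3 CPM, a median of 112 CPM and a highest value of 383 CPM. It was 4.17 CPM in cSCC 18, 3.95 CPM in cSCC 19, 433 CPM in cSCC 20 and 0.992 CPM in cSCC 21. The 3 low cSCC thus lay under every NS and AK, and cSCC 20 lay among the highest NS. The 10 genes took 0.0405% to 0.336% of the counts in NS and 0.050% to 0.239% in AK. In cSCC they took 0.0199% in cSCC 18, 0.0212% in cSCC 19, 0.30% in cSCC 20 and 0.534% in cSCC 21, and 34259 of the 37883 counts in cSCC 21 were those of Lpl.

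Per kilobase of exon, Cfd had the highest level of the 10 genes in NS, with a median of 366 CPM per kb. It was followed by Fabp4 (85.9), Retn (65.2), Adipoq (32.7), Lpl (23.9), Cidec (5.78), Pparg (3.54), Plin4 (1.66), Lep (0.269) and Plin1 (0.138), all as median CPM per kb. The ranges of neighbours in this order overlapped across the 8 NS. In AK the order was the same except that Adipoq (39.5) stood before Retn (34.7). The exon lengths were those of GENCODE M21 on GRCm38, and length in the counted transcripts may differ. No member shared exon bases with another gene other than Plin4, which shared 17 bases with Hdgfl2 on the opposite strand.

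Among the secreted factors, Adipoq encodes adiponectin, an insulin-sensitizing hormone made by adipocytes. In NS, Adipoq ranged from 9.0 CPM (NS 5) to 239 CPM (NS 2) with a median of 45.2 CPM. In AK it ranged from 19.6 CPM (AK 10) to 123 CPM (AK 13) with a median of 54.6 CPM. The AK values lay inside the NS range. In cSCC, Adipoq was 0 in cSCC 18, 2.20 CPM in cSCC 19, 179 CPM in cSCC 20 and 0.662 CPM in cSCC 21. The 0 in cSCC 18 allowed a level of up to 2.08 CPM.

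Retn encodes resistin, an adipokine that opposes insulin in rodents. Retn ranged from 3.60 CPM to 234 CPM in NS (median 103 CPM) and from 25.7 CPM to 261 CPM in AK (median 54.8 CPM). It was 4.17 CPM in cSCC 18, 1.76 CPM in cSCC 19, 210.5 CPM in cSCC 20 and 0.331 CPM in cSCC 21. The 3 low cSCC lay below every AK, while NS 5 lay between cSCC 18 and cSCC 19.

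Cfd encodes adipsin, complement factor D, the serine protease that starts the alternative pathway. Cfd ranged from 98.1 CPM to 1203 CPM in NS (median 338 CPM) and from 88.3 CPM to 670.0 CPM in AK (median 278 CPM). It was 5.56 CPM in cSCC 18, 6.15 CPM in cSCC 19, 977 CPM in cSCC 20 and 1.65 CPM in cSCC 21. The values of cSCC 18, 19 and 21 lay below every NS and AK, while the NS and AK ranges overlapped.

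Lep encodes leptin, the hormone that reports fat stores to the brain. Lep was low throughout: it had counts in 5 of 8 NS (highest 10.1 CPM, NS 2) and in 6 of 8 AK (highest 2.40 CPM, AK 16). It was at 18.2 CPM in cSCC 20, from 16 counts, and at 0 in cSCC 18, 19 and 21. Over these 3 libraries, 3 counts would equal 0.307 CPM, so Lep was at least 8.06-fold lower than the NS mean and at least 2.33-fold lower than the AK mean. Without NS 2 the former bound was 4.50-fold, and without AK 16 the latter was 1.55-fold, a check added after seeing the data. The floor of 0.307 CPM included cSCC 21, the library with heart markers. With cSCC 18 and 19 alone, the bound against NS was 3.07-fold. No bound against AK was then possible, as the floor of 0.807 CPM exceeded the AK mean of 0.716 CPM.

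Among the lipid droplet genes, Cidec encodes a protein that fuses droplets into the single large one of white fat. Cidec ranged from 6.07 CPM to 34.2 CPM in NS (median 10.7 CPM) and from 1.80 CPM to 18.7 CPM in AK (median 9.87 CPM). It was 26.2 CPM in cSCC 20 and 0 in cSCC 18, 19 and 21. With the same floor of 3 counts over the 3 libraries, Cidec was at least 51.9-fold lower than the NS mean and at least 32.7-fold lower than the AK mean. With cSCC 18 and 19 alone, these bounds were 19.8-fold and 12.4-fold.

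Plin1 encodes perilipin 1, the droplet coat protein that gates lipolysis. Plin1 had only 38 counts over the 8 NS, 22 of them in NS 2 (6.37 CPM), and 14 counts over the 8 AK (highest 1.21 CPM). It was at 0 in all 4 cSCC, which in cSCC 20 allowed up to 3.41 CPM, more than the level of 7 of the 8 NS. Its absence from cSCC 20 was thus not detectable at that depth.

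Plin4 encodes a perilipin of adipocytes and of striated muscle. Plin4 ranged from 2.25 CPM to 21.7 CPM in NS (median 9.58 CPM) and from 3.20 CPM to 7.84 CPM in AK (median 4.98 CPM). It was 0 in cSCC 18, 0.879 CPM in cSCC 19, 5.69 CPM in cSCC 20 and 102 CPM in cSCC 21, the library with heart markers. The 4 cSCC thus surrounded both other groups.

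Lpl encodes lipoprotein lipase, which frees fatty acids from circulating triglyceride and is abundant in heart, muscle and fat. Lpl ranged from 164 CPM to 522 CPM in NS (median 250.1 CPM) and from 148 CPM to 662 CPM in AK (median 328 CPM). It was 40.3 CPM in cSCC 18, 32.5 CPM in cSCC 19, 234 CPM in cSCC 20 and 5666 CPM in cSCC 21. The values of cSCC 18 and 19 were below every NS and AK, and that of cSCC 21 was above them all.

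Fabp4 encodes a fatty acid carrier of adipocytes, capillary endothelium and macrophages. Fabp4 ranged from 80.1 CPM to 728 CPM in NS (median 386 CPM) and from 145 CPM to 881 CPM in AK (median 337 CPM). It was 339 CPM in cSCC 18, 142 CPM in cSCC 19, 965 CPM in cSCC 20 and 480.1 CPM in cSCC 21. Only the value of cSCC 20 lay outside the range of NS, and the drop seen for the restricted genes was not visible here. Endothelium markers summed to 132 to 885 CPM in cSCC, against at most 120.4 CPM in NS and AK, and macrophage markers to 862 to 7465 CPM in cSCC, against 1323 to 8102 CPM in NS and AK. Their part in the Fabp4 level was not tested.

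Pparg encodes the nuclear receptor that drives adipocyte differentiation and is also used by sebocytes. Pparg ranged from 1.35 CPM to 68.7 CPM in NS (median 10.5 CPM) and from 6.31 CPM to 40.8 CPM in AK (median 15.6 CPM). It was 2.08 CPM in cSCC 18, 0 in cSCC 19, 34.1 CPM in cSCC 20 and 15.1 CPM in cSCC 21. The values of cSCC 20 and 21 lay inside both other groups.

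**Figure D2:**
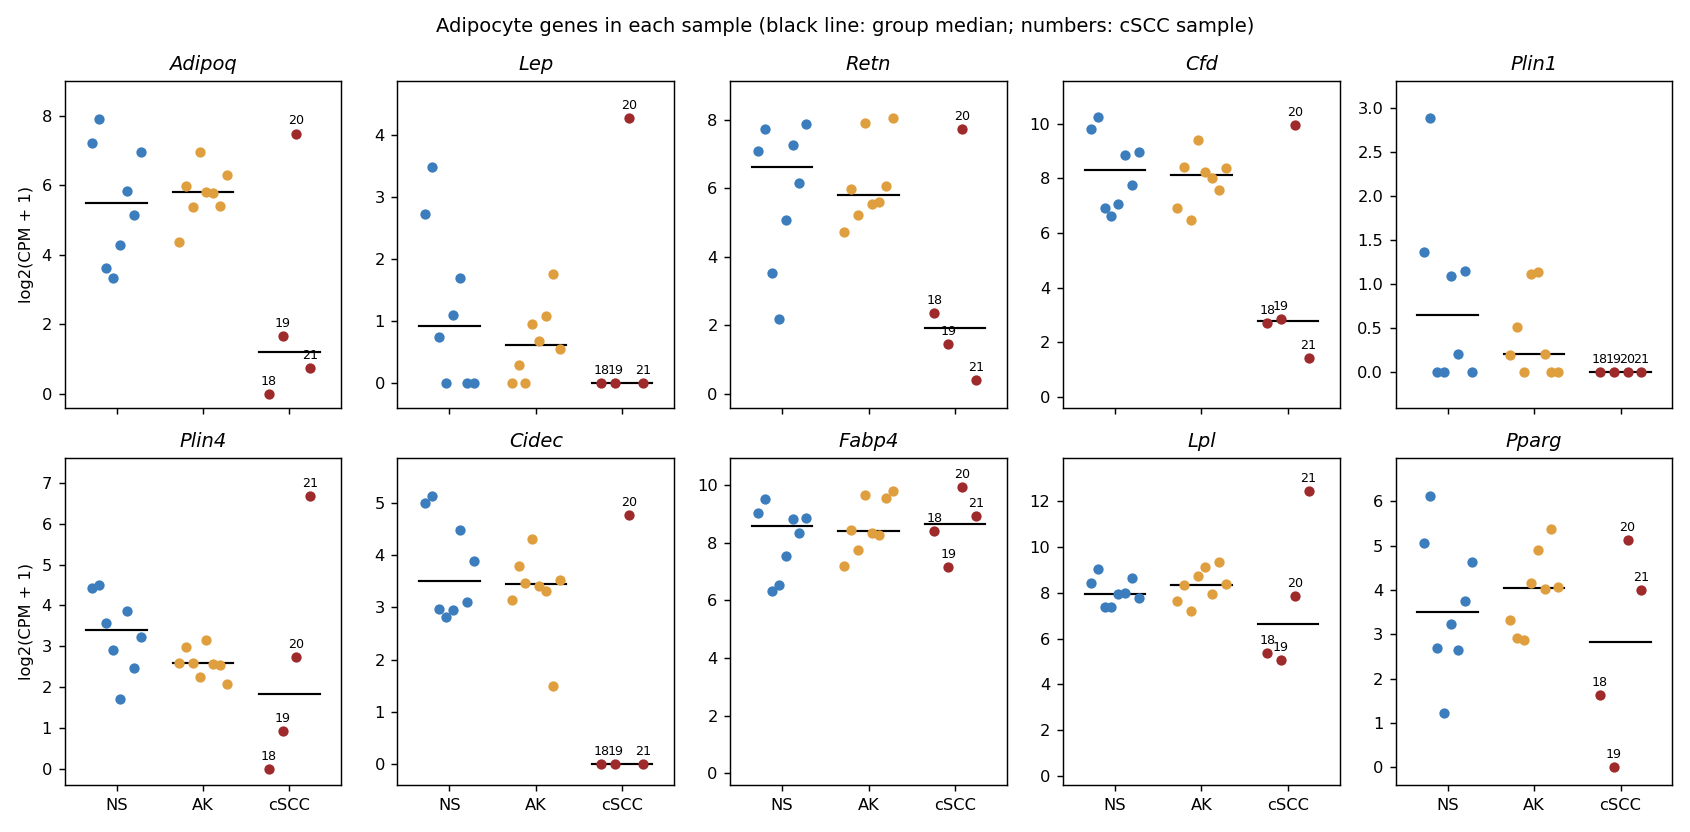
Level of each of the 10 genes as log2(CPM + 1), 1 point per sample by group, with the group median as a black line and cSCC samples numbered. Adipoq, Retn, Cfd, Lep and Cidec are high in cSCC 20 and low in cSCC 18, 19 and 21, Plin4 and Lpl are highest in cSCC 21, and Fabp4 overlaps across the groups.

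In AK vs. NS, no adipocyte gene passed the test. Lep and Plin1 did not pass the filter on low counts, and of the 8 genes tested with edgeR's quasi-likelihood test 0 were higher and 0 lower, where 2.26% of 11677 genes were higher and 2.38% lower. The median log2 fold change of the 8 was -0.33, with a median of -0.04 over all genes. Plin4 had the largest difference, a log2 fold change of -1.12 (SE 0.38) with an adjusted p of 0.0817 in edgeR. It was the 1 member with an unadjusted p under 0.05. DESeq2 called it lower, and limma voom with sample quality weights called none. These weights, which let samples count unequally, were used wherever limma voom is named. Adipoq had a log2 fold change of -0.46 (SE 0.55), Cfd -0.68 (SE 0.50), Cidec -0.69 (SE 0.42), Retn -0.12 (SE 0.65), Pparg -0.21 (SE 0.58), Lpl 0.31 (SE 0.30) and Fabp4 0.39 (SE 0.44). None of the 8 passed the adjusted p in edgeR.

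In cSCC vs. NS with all samples, no adipocyte gene passed the test either. Of 8 genes tested with edgeR 0 were higher and 0 lower, where 11.7% of 12097 genes were higher and 7.65% lower. DESeq2 and limma voom also called 0, and 1 member, Lpl, had an unadjusted p under 0.05. Its log2 fold change was 2.45 (SE 0.95, adjusted p = 0.0838 in edgeR). The log2 fold change of Adipoq was -0.79 with an SE of 1.30, against an SE of 0.55 in AK vs. NS.

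Without cSCC 20, 4 of the 8 genes were lower than in NS and 0 were higher. Among all genes 7.45% were lower and 11.5% higher. Adipoq fell by 6.28 on the log2 scale (SE 1.39, adjusted p = 0.00986 in edgeR). Cfd fell by 6.70 (SE 1.12, adjusted p = 0.00320) and Retn by 5.93 (SE 1.43, adjusted p = 0.0138). Cidec was also called (adjusted p = 0.00347), with the bound of at least 51.9-fold given above. At 0 in the 3 remaining cSCC, Cidec passed the count filter through NS alone and could not come out higher. Fabp4 had a log2 fold change of -0.10 (SE 0.62), Pparg -1.60 (SE 1.15), Plin4 1.71 (SE 1.00) and Lpl 2.79 (SE 0.98, adjusted p = 0.0624), and none of these passed. The median over the 8 was -3.77, or -3.65 with Cidec at its bound, against 0.14 over all genes. DESeq2 and scaling by library size alone also called 4 members lower without cSCC 20, while limma voom called 0, with log2 fold changes of -5.00 for Adipoq and -5.67 for Cfd. These 3 settings were chosen after seeing the data. Markers of other skin cells were also lower in edgeR without cSCC 20, with 5 of 7 sebocyte markers tested (median log2 fold change -4.36), 4 of 10 skeletal muscle markers (median -2.79, 1 higher) and 3 of 10 keratinocyte markers (median -1.16). Their part in the fall of the adipocyte genes was not tested.

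Without cSCC 20 and 21, 5 of 9 genes tested were lower than in NS and 0 were higher, where 6.46% of all genes were lower and 5.74% higher. Lep and Cidec, at 0 in both remaining cSCC, passed the count filter through NS alone and could not come out higher. Cfd fell by 6.23 on the log2 scale (SE 1.27, adjusted p = 0.0104 in edgeR) and Adipoq by 5.90 (SE 1.71, adjusted p = 0.0414). Plin4 fell by 4.32 (SE 1.16, adjusted p = 0.0318) and Lpl by 2.97 (SE 0.51, adjusted p = 0.00504). Over cSCC 18 and 19, Plin4 had 2 counts and Adipoq 5, so the sizes of their falls are uncertain. Cidec was called as well (adjusted p = 0.0131) and was at least 19.8-fold lower over the 2 remaining cSCC. Retn, with a log2 fold change of -5.20, had an adjusted p of 0.0517. The median over the 9 was -5.20, or -4.32 with Lep and Cidec at their bounds, against -0.06 over all genes. The test then rested on 2 cSCC, one of which held the red blood cell genes.

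In cSCC vs. AK, 1 of 8 genes, Plin4, was higher and 0 were lower with all samples, where 16% of 12032 genes were higher and 8.34% lower in edgeR. Plin4 had a log2 fold change of 2.65 (SE 0.90, adjusted p = 0.0449), and 614 of the 621 Plin4 counts in cSCC were from cSCC 21. Without cSCC 21 its log2 fold change was -1.47. DESeq2 and limma voom called 0 members in either direction, and at an unadjusted p under 0.05 Plin4 and Lpl were higher and 0 members lower. Without cSCC 20, 4 genes were lower and 1 was higher, where 8.28% and 16.5% of all genes were. The genes that fell were those of the comparison with NS: Adipoq fell by 5.76 on the log2 scale (SE 0.77, adjusted p = 0.00162), Cfd fell by 6.0 (SE 0.78, adjusted p = 0.00162), Retn by 5.79 (SE 1.11, adjusted p = 0.00404), and Cidec was at least 32.7-fold lower (adjusted p = 0.00231). Plin4 was higher by 2.96 on the log2 scale (SE 0.93, adjusted p = 0.0340). The comparisons with NS and with AK share the cSCC samples. Leaving out cSCC 20, where Adipoq, Cfd, Retn and Cidec were high, shaped both results. Cidec, at 0 in the 3 remaining cSCC, passed the count filter through AK alone and could not come out higher.

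Without cSCC 20 and 21, 7 of the 8 genes tested were lower than in AK, where 5.90% of all genes were lower and 6.71% higher. Fabp4 was the exception, with a log2 fold change of -0.92 (SE 0.63, adjusted p = 0.358). Lpl fell by 3.26 on the log2 scale (SE 0.59), Plin4 by 3.19 (SE 0.91) and Pparg fell by 4.23 (SE 1.12). Over cSCC 18 and 19, Plin4 had 2 counts and Pparg 3, so the sizes of their falls are uncertain. Cidec was at 0 in both, so it passed the count filter through AK alone and could not come out higher. The median over the 8 was -4.65, or -3.93 with Cidec at its bound, against -0.01 over all genes.

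**Figure D3:**
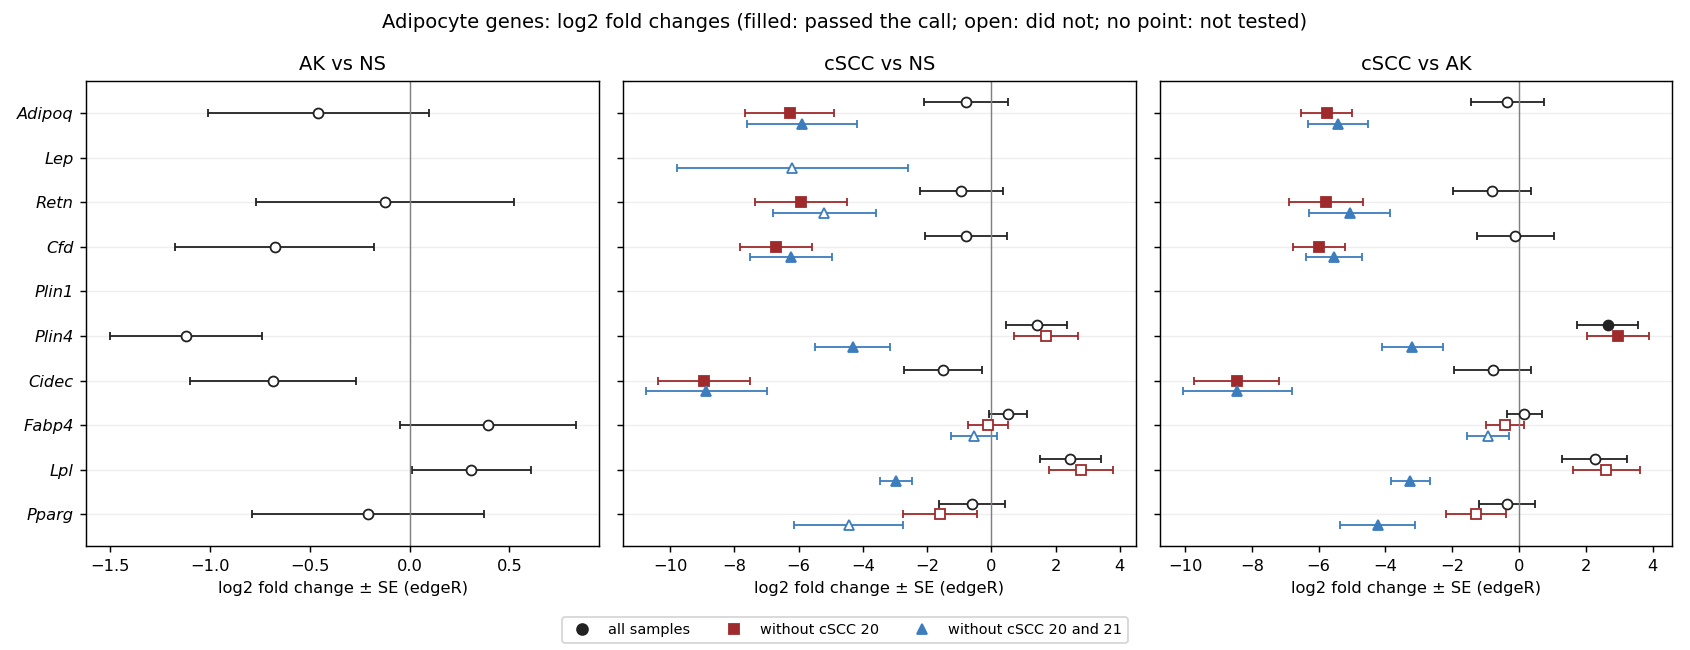
Fitted log2 fold change with its SE for each gene in the 3 comparisons, with all samples, without cSCC 20, and without cSCC 20 and 21, where filled marks passed the call and genes that were not tested have no mark. In the cSCC comparisons the fold changes of Adipoq, Retn and Cfd did not pass the call with all samples. These genes lie between -5.07 and -6.70 in the fits without cSCC 20, and Plin4 and Lpl change sign once cSCC 20 and 21 are both left out. The Cidec marks without cSCC 20 are fitted against libraries at 0 and are no bounds. The same holds for the Lep mark in cSCC vs. NS without cSCC 20 and 21.

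The proportions between the genes differed by gene and by cSCC. The ratio of Cfd to Adipoq counts was 3.99 to 10.9 in NS and 2.19 to 6.16 in AK. It was 5.47 in cSCC 20, inside both ranges. In cSCC 19 it was 2.8, from 5 Adipoq counts, and in cSCC 21 it was 2.5, from 4 Adipoq counts. The ratios of cSCC 19 and 21 lay below every NS, and in AK only AK 12 was lower, from 32 Adipoq counts. The ratio of Retn to Adipoq counts was 0.4 to 2.69 in NS and 0.821 to 3.40 in AK. It was 1.18 in cSCC 20, inside both ranges. In cSCC 19 it was 0.8 and in cSCC 21 it was 0.5, from the same few Adipoq counts. Both lay below every AK, and NS 5 was the only NS below them. In cSCC 18 Adipoq was at 0 and no ratio was taken. The ratio of Fabp4 to Adipoq counts was 3.04 to 10.1 in NS, 5.28 to 17.9 in AK and 5.40 in cSCC 20. In cSCC 19 the latter was 64.8, from 5 Adipoq counts, and in cSCC 21 it was 726, from 4 Adipoq counts, both above every NS and AK. For Lpl, the ratio was 1.74 to 18.3 in NS, 3.44 to 16 in AK, 1.31 in cSCC 20, 14.8 in cSCC 19 and 8565 in cSCC 21. The Lpl ratio of cSCC 20 was thus below every NS and AK, and that of cSCC 19 lay inside both ranges. In cSCC 21, Fabp4 and Lpl thus had many counts where Adipoq had few.

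**Figure D4:**
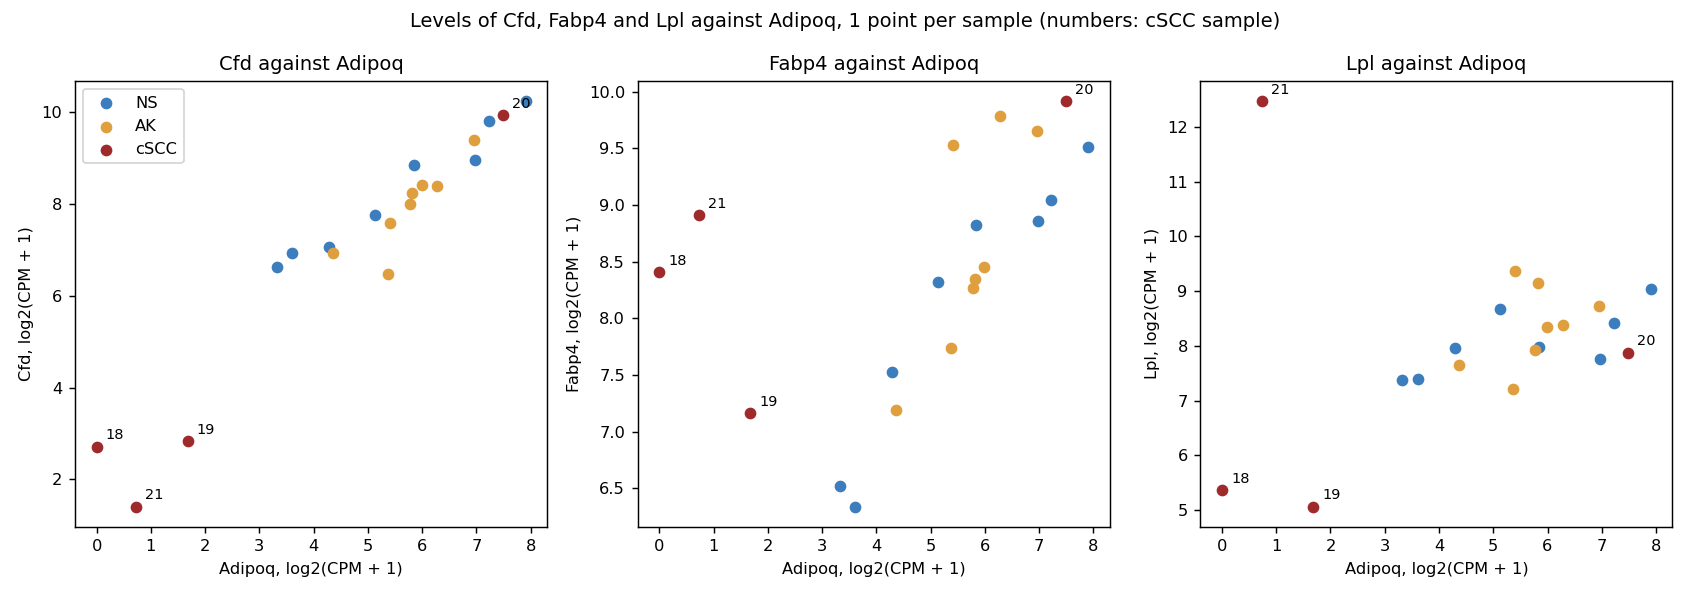
Cfd, Fabp4 and Lpl against Adipoq, all as log2(CPM + 1), 1 point per sample colored by group, with cSCC samples numbered. Cfd rises with Adipoq over NS, AK and cSCC 20, while cSCC 18, 19 and 21 lie at the low end of Adipoq with Fabp4 levels (142 to 480.1 CPM) inside the NS range and, in cSCC 21, the highest Lpl.

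Within NS the levels of the adipocyte genes were correlated. Among the 45 pairs of members, Pearson's r of log2(CPM + 1) over the 8 NS was positive in 45, from 0.32 to 0.98 with a median of 0.75. By two-sided exact permutation with Benjamini-Hochberg adjustment over the 90 pairs of both groups, 13 NS pairs passed with Pearson's r and 7 of them also with Spearman's rho. Adipoq and Cfd had r = 0.98 (exact adjusted p = 0.00558) and rho = 1.0 (exact adjusted p = 0.00446, from the smallest p that the pairings allow), and r = 0.96 once the 2 NS lying farthest from the Adipoq median were removed. Adipoq and Fabp4 had r = 0.95 and rho = 0.98 (exact adjusted p = 0.00558 and 0.00893), with r = 0.92 without the 2 samples. Cfd and Cidec had r = 0.97 and rho = 0.95 (exact adjusted p = 0.00725 and 0.0147), with r = 0.95 without the 2 samples. NS 2 was the highest NS for 9 of the 10 genes, all but Retn, and NS 4 and NS 5 were the lowest for Adipoq, Retn, Cfd, Fabp4 and Lpl.

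Within AK fewer pairs were correlated. Of the 45 pairs, r was positive in 34, with a median of 0.37, and 5 pairs passed with Pearson's r, 3 of them also with rho. Retn and Fabp4 had r = 0.89 and rho = 0.98 (exact adjusted p = 0.00725 and 0.00893) and r = 0.92 without the 2 farthest samples. Adipoq and Cfd had r = 0.87 and rho = 0.95 (exact adjusted p = 0.0454 and 0.0147) and r = 0.83 without them. Lpl and Pparg had r = 0.85 and rho = 0.93 (exact adjusted p = 0.0454 and 0.0251) and r = 0.68 without them. Of the 11 negative pairs, Plin4 took part in 7 and Cidec in 5. The difference between the NS and AK correlations was not tested.

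**Figure D5:**
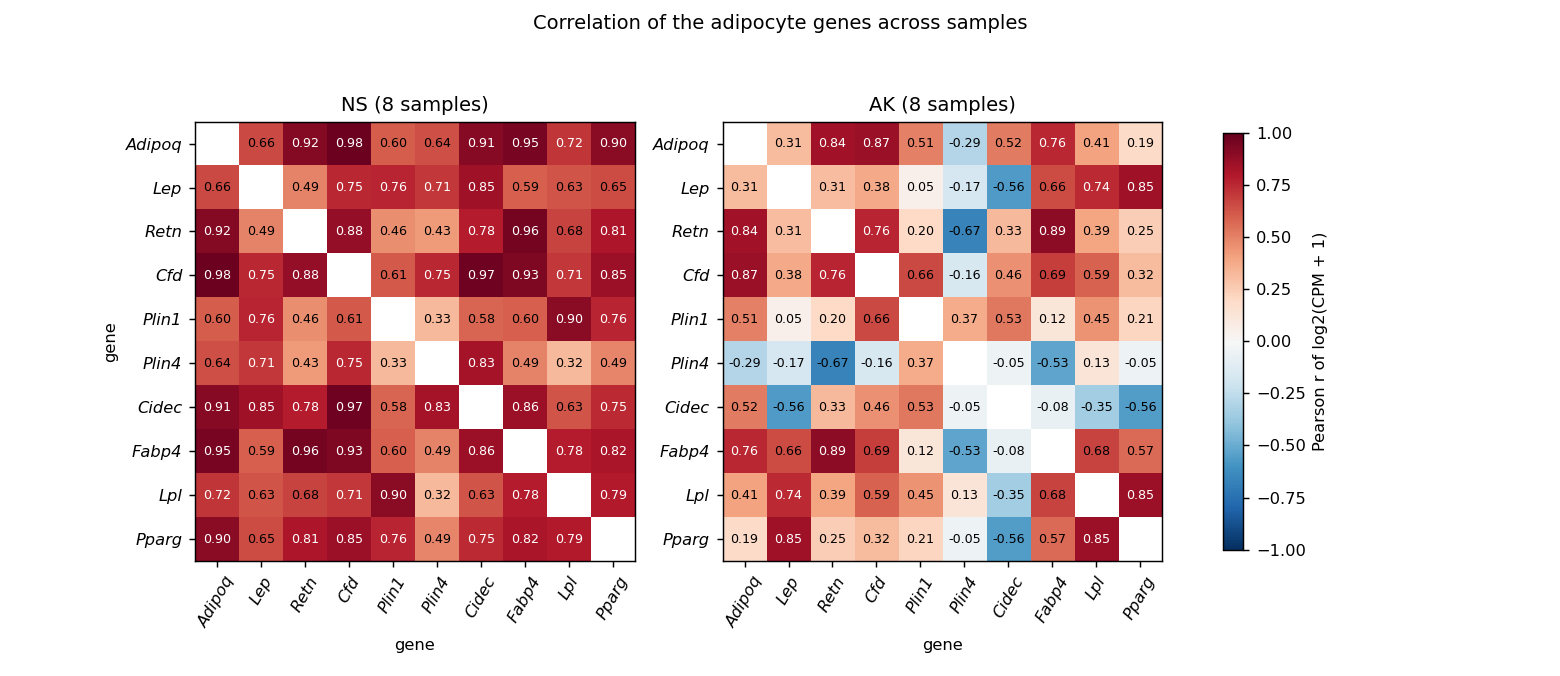
Pearson's r of log2(CPM + 1) for every pair of the 10 genes over the 8 NS and over the 8 AK. In NS r is positive in all 45 pairs, and in AK it is positive in 34, with 7 of the 11 negative pairs in the Plin4 row.

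Markers of some other cell types moved with Adipoq in NS. The Adipoq log2(CPM + 1) was compared with the mean of 5 marker lists in each group, 10 relations in all. In NS, r was -0.85 and rho -0.90 with keratinocyte markers (exact adjusted p = 0.0749 and 0.0228), and r was -0.76 once the 2 NS lying farthest from the marker median were removed. With fibroblast markers r was 0.86 and rho 0.90 (exact adjusted p = 0.0662 and 0.0228), and r was 0.95 without the 2 samples. With endothelium markers r was 0.81 and rho 0.76 (exact adjusted p = 0.0749 and 0.123). By Pearson's r none of the 10 relations passed, and in AK none passed by either coefficient. Skeletal muscle markers, which lie under the skin, had r = 0.36 in NS and -0.41 in AK. Without the 2 farthest samples these became -0.08 and 0.57. Sebocyte markers had r = 0.69 in NS and 0.0065 in AK, and -0.11 and -0.10 without the 2 samples.

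Other genes of the adipocyte programme were read from 10 lists with 79 genes, 78 of them in the table. In AK vs. NS, 61 were tested, 1 was higher and 5 were lower (2.26% and 2.38% over all genes), with a median log2 fold change of -0.31. The genes that fell were Elovl6, a fatty acid elongase, by 0.97 on the log2 scale (SE 0.28, adjusted p = 0.0490), Dgat2, which makes triglyceride, by 0.87 (SE 0.23, adjusted p = 0.0385), Slc2a4, the insulin-responsive glucose transporter, by 2.24 (SE 0.53, adjusted p = 0.0266), Cox8b by 1.87 (SE 0.39, adjusted p = 0.0190) and Pi16 by 1.37 (SE 0.40, adjusted p = 0.0493). Ly6a, which encodes Sca-1, rose by 1.14 (SE 0.30, adjusted p = 0.0356). Slc2a4 and Cox8b are also muscle genes. The skeletal muscle markers summed to 737 to 9348 CPM in NS and 26.7 to 5889 CPM in AK. Their median log2 fold change was -1.32, with 0 of 10 called. Of the 7 sebocyte markers tested, 2 were lower and 0 higher (median -0.63). The part of both marker lists in these falls was not tested.

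In cSCC vs. NS with all samples, 69 of the 78 were tested, 13 were higher and 6 lower, where 11.7% and 7.65% of all genes were. Fatty acid synthesis genes were split, with 3 of 15 lower (Elovl6, Me1 and Acly) and 2 higher (Gpam and Agpat2). Elovl6 fell by 2.95 on the log2 scale (SE 0.67, adjusted p = 0.00920) and Me1, which supplies NADPH, fell by 1.67 (SE 0.29, adjusted p = 0.00283). Among the other lower genes, Cebpa, the partner factor of PPARγ, fell by 2.23 (SE 0.51, adjusted p = 0.00920). Its mean was 153 CPM in NS, 98.6 CPM in AK and 32.1 CPM in cSCC. Pnpla3 fell by 3.56 (SE 0.71, adjusted p = 0.00530) and Elovl3, which sebocytes also use, fell by 5.10 (SE 1.05, adjusted p = 0.00616). Of the 10 sebocyte markers, among them Elovl3, 7 were tested and 5 were lower (median log2 fold change -4.65), and Awat2 and Mc5r were at 0 in all 4 cSCC. Summed, the sebocyte markers were 283 to 1992 CPM in NS and 296 to 844 CPM in cSCC. Plin2, one of these markers, made up most of each cSCC sum, from 268 CPM in cSCC 21 to 775 CPM in cSCC 20. The sums thus say little of the other sebocyte markers. Of the 10 keratinocyte markers 4 were lower (median -1.29), and of the 10 skeletal muscle markers 5 were lower (median -2.70). Their part in the change of the lipid genes was not tested.

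Of the fatty acid uptake genes, 4 of 7 were higher and 0 lower with all samples, and 2 of 7 were higher without cSCC 20 and 21. Gpihbp1, the capillary anchor of lipoprotein lipase, rose by 4.11 on the log2 scale (SE 0.68, adjusted p = 0.00204). It was 25.7, 24.6, 25.0 and 144 CPM in cSCC 18, 19, 20 and 21, all above the highest NS of 6.70 CPM. Of the 10 endothelium markers 9 were also higher in this comparison. Slc27a1, Lmf1 and Cav1 were the other 3, and Slc27a1 (112 CPM) and Lmf1 (53.8 CPM) were highest in cSCC 21. Slc2a4, Pnpla2, Gpam and Plin3 were higher too, and each had its highest level in cSCC 21, such as 516 CPM of Slc2a4 in cSCC 21 against 0 to 13.7 CPM in the other cSCC. Sncg was highest in cSCC 19, at 348 CPM. Adipor1, a receptor of adiponectin, rose by 0.72 (SE 0.22, adjusted p = 0.0321), and Cap1, a resistin receptor, by 1.07 (SE 0.32, adjusted p = 0.0301).

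Without cSCC 20, 13 of 70 were higher and 13 lower (11.5% and 7.45% over all genes), and without cSCC 20 and 21, 5 of 70 were higher and 16 lower (5.74% and 6.46%). Cebpa, Me1, Elovl6, Pnpla3 and Elovl3 were lower in all 3 fits. Without cSCC 20 and 21, fatty acid synthesis had 7 of its 15 genes lower. Scd1, the stearoyl-CoA desaturase, fell by 3.47 on the log2 scale (SE 0.81, adjusted p = 0.0184), and Pck1, at 0 in both remaining cSCC, was at least 10.6-fold lower than the NS mean. Adig, a small adipocyte protein, fell by 5.03 (SE 1.26, adjusted p = 0.0239) and Car3, an abundant carbonic anhydrase of fat and muscle, by 4.15 (SE 1.11, adjusted p = 0.0309). Gpihbp1, Cav1, Sncg, Adipor1 and Cap1 were higher, and Slc2a4, Pnpla2, Gpam, Plin3, Slc27a1 and Lmf1 were no longer called. The Sncg call rested on cSCC 19 (348 CPM), as Sncg was 1.39 CPM in cSCC 18, below the NS median of 7.50 CPM. In cSCC vs. AK with all samples, 24 of 64 were higher and 6 lower (16% and 8.34% over all genes), and without cSCC 20 and 21, 7 of 64 were higher and 15 lower (6.71% and 5.90%).

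The genes most like the 10 members in their pattern were found by Pearson's r between log2(CPM + 1) and the mean of the members' standardized levels, as a description. The 20 libraries share depth and sample makeup, and r is across libraries. Over all 20 samples, Thrsp (r = 0.88), Cdo1 (0.86), Pck1 (0.86), Itga8 (0.86), Adig (0.85), Nrg4 (0.84), Cyp2e1 (0.83), Reps2 (0.83), Cyp2f2 (0.82) and Ccl21b (0.81) led 12841 genes. Cdo1 was 83.1 CPM in cSCC 20 and at most 3.52 CPM in the other cSCC, with an NS mean of 25.3 CPM, and Cyp2e1 was 226 CPM in cSCC 20 and at most 2.08 CPM in the other cSCC. Over the 16 NS and AK, Scd1 (0.95), Cilp (0.89), Cdo1 (0.89), Cxcl12 (0.88), St3gal4 (0.88), Dcn (0.88), Lgals1 (0.87), G0s2 (0.87), Gm2564 (0.87) and Apip (0.87) led. Cdo1 was the 1 gene in both lists of 10.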

How the data were processed

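The authors deposited 1 table of raw counts per gene symbol for 20 mouse skin libraries, which were not normalized. Per the labels, reads were trimmed with Trimmomatic 0.36, aligned with HISAT2 2.0.5 and counted with featureCounts 1.5.2, and the genome builds named are mm9 and hg19, whereas the study's methods name StringTie and GRCm38, so the build was not settled. The strand used in counting is not given in the sources used here.

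The 10 genes and the lists were chosen with earlier results of these data known. CPM used TMM factors over the 20 samples (edgeR 4.0.16, limma 3.58.1, R 4.3.3). Each comparison was fitted on the whole table with only the 2 groups compared, genes kept by filterByExpr and edgeR's quasi-likelihood test. A gene was called higher or lower at a Benjamini-Hochberg adjusted p under 0.05 over all genes tested with a fold change over 1.5 or under 0.67. Every member was named, plus the 10 genes most alike in pattern. Some of the called list genes were named for AK vs. NS and cSCC vs. NS. The rule of up to 4 called genes per list by size of change was not kept throughout. For cSCC vs. AK, only the numbers of list genes called were given. Examples of levels within the lists and in the likeness results were chosen after their values were seen. Counts were compared between samples of the same group in 62 pairs. Chi-square divided by its degrees of freedom was at least 12.3, above sampling noise, so no pair looked like the same RNA sequenced again. Each sample was counted as 1 replicate. This check cannot show that samples are independent, and the AK share mice.

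Alternatives were DESeq2 1.42.0, limma voom, library size alone, other count filters, no fold change limit, all 20 samples in 1 fit, haemoglobin genes left out, a pseudocount of 0.1 in place of 1 for correlations, and leaving out samples. Python 3.11.15 with numpy 2.4.6, pandas 2.3.3 and scipy 1.17.1 computed the rest. Floors of 3 counts cover counting error only.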

Additional observations from a re-analysis of the deposited data

Results flagged for a closer look

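Of the gene levels in each group, 11 had a highest sample far from the rest by Dixon's test. Its limits hold for normally distributed values, and it was run on untransformed CPM. The share flagged by chance is therefore not known. In cSCC, cSCC 20 stood far above the other 3 samples for Adipoq (179 CPM), Lep (18.2 CPM), Retn (210.5 CPM), Cfd (977 CPM) and Cidec (26.2 CPM). This library also held the lung epithelium markers at 36072 CPM. In cSCC, cSCC 21 stood far above the others for Plin4 (102 CPM) and Lpl (5666 CPM), and this library held the heart muscle markers at 58806 CPM. The part of these markers' cells in these levels was not tested. In NS, NS 2 was far above the others for Plin1 (6.37 CPM) and Pparg (68.7 CPM). In AK, AK 16 was highest for Lep (2.40 CPM, from 4 counts) and AK 13 for Cfd (670.0 CPM).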

How the results depend on the processing

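Members called lower in AK vs. NS numbered 0, and 1 (Plin4) with DESeq2 (adjusted p = 0.0372), and ranged from 0 to 1 when each sample was left out, with 1 without NS 6 or NS 8. In cSCC vs. NS, members higher numbered 1 with all 20 samples in 1 fit and 0 to 1 when each sample was left out, with 1 without cSCC 18 or cSCC 19. Members lower numbered 5 without cSCC 20 and 21 together and 0 to 4 when each sample was left out, with 4 without cSCC 20 and 0 otherwise. In cSCC vs. AK, members higher numbered 1, and 0 with DESeq2, limma voom, library size alone, no filter, at least 10 counts, haemoglobin genes left out or cSCC 20 and 21 left out, and 0 to 2 when each sample was left out. They numbered 0 without each AK in turn and without cSCC 21, and 2 without cSCC 18 or cSCC 19. Members lower numbered 7 without cSCC 20 and 21, and 0 to 4 when each sample was left out, with 4 without cSCC 20. With cSCC 20 left out, settings added after seeing the data called 4 members lower in both cSCC comparisons with library size alone and with DESeq2, and 0 with limma voom, and 0 higher with each.

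Several log2 fold changes changed sign, and the cause was not tested. In AK vs. NS, limma voom with sample quality weights gave 0.55 for Adipoq, 0.73 for Retn, 0.10 for Cfd and 0.48 for Pparg. In cSCC vs. NS it gave -1.84 for Plin4 and -1.37 for Lpl, and in cSCC vs. AK -0.89 and -1.73. Without cSCC 20 and 21, Plin4, Fabp4 and Lpl had -4.32, -0.54 and -2.97 against NS and -3.19, -0.92 and -3.26 against AK. In cSCC vs. AK, Fabp4 was -0.034 with library size alone and -0.034 with no filter. With cSCC 20 left out, Fabp4 was -0.61 with library size alone, -0.092 with DESeq2 and -0.15 with limma voom against NS, and -0.92, -0.40 and -0.94 against AK, while limma voom gave -2.53 for Plin4 and -2.04 for Lpl against NS, and -1.66 and -2.32 against AK.

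When each sample was left out, the log2 fold change in AK vs. NS ranged from -0.70 to 0.021 for Adipoq, -0.51 to 0.15 for Retn and -0.49 to 0.42 for Pparg. In cSCC vs. NS it ranged from -1.60 to 0.030 for Pparg, -0.10 to 0.81 for Fabp4, -2.57 to 1.82 for Plin4 and -1.45 to 2.87 for Lpl. In cSCC vs. AK it ranged from -5.76 to 0.056 for Adipoq, -6.00 to 0.28 for Cfd, -1.29 to 0.064 for Pparg, -0.42 to 0.46 for Fabp4, -1.47 to 3.04 for Plin4 and -1.80 to 2.66 for Lpl. The lowest values of Adipoq, Cfd and Pparg in cSCC vs. AK are those without cSCC 20. The lowest values of Plin4 and Lpl in both cSCC comparisons are those without cSCC 21.

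Library size alone moved the median log2 fold change over all genes from 0.14 to -0.17 in cSCC vs. NS, 0.17 to -0.09 in cSCC vs. AK and -0.04 to -0.13 in AK vs. NS. With it the share of all called genes that were higher was 31.9%, 43% and 26.8%, against 60.4%, 65.8% and 48.7% with TMM. Over all genes, AK vs. NS called 264 higher and 278 lower, but 433 and 616 with DESeq2, 521 and 522 with limma voom, 176 and 481 with library size alone, and 5 and 4 with all 20 samples in 1 fit. In cSCC vs. NS, 1414 were higher and 926 lower, but 768 and 540 with limma voom, 625 and 1332 with library size alone and 1783 and 1488 in 1 fit. In cSCC vs. AK, 1931 and 1004 became 726 and 544, 1021 and 1356, and 2131 and 1634 under the same settings. When each sample was left out, higher and lower calls over all genes ranged from 87 to 437 and 77 to 483 in AK vs. NS (fewest without NS 4, most without NS 8), 859 to 1890 and 703 to 1291 in cSCC vs. NS, and 837 to 2330 and 768 to 1664 in cSCC vs. AK. In both cSCC comparisons the fewest higher calls were without cSCC 21 and the most without cSCC 18. Without cSCC 20 and 21 they numbered 733 and 825 against NS and 843 and 741 against AK. Without a fold change limit the number of members called did not change. Depth limits Plin1, which did not reach the count filter in edgeR in the comparisons of the report, and Lep, which reached it only in cSCC vs. NS without cSCC 20 and 21, and no paired analysis was possible because the groups share no replicate numbers.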

Other observations

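Some other fat-linked genes were much higher in 1 cSCC than in the other cSCC. In cSCC 21, Cd36, a fatty acid transporter, was at 2870 CPM, against 60.2 to 400.5 CPM in the other cSCC, 123 to 1264 CPM in NS and 354 to 2504 CPM in AK. Aqp7, a glycerol channel, was at 79.6 CPM in cSCC 21 and at most 1.39 CPM in the other cSCC, with at most 2.44 CPM in NS and 1.80 CPM in AK. Ppargc1a, a coactivator of mitochondrial genes, was at 131 CPM in cSCC 21, against at most 1.14 CPM in the other cSCC, 7.89 CPM in NS and 5.64 CPM in AK. In cSCC 20, Thrsp, a lipogenic gene of fat, was at 307 CPM, against 1.32 CPM in cSCC 19, 3.47 CPM in cSCC 18 and 78.4 CPM in cSCC 21, with 11.5 to 237 CPM in NS and 17.7 to 419 CPM in AK. Ucp1, the uncoupling protein of brown fat, was at 0 in all 4 cSCC and at most 1.70 CPM in NS. These genes were chosen after their values were seen.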
